A study of Homo sapiens with 2 samples.

Results

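The interleukin-1 (IL-1) family cytokines were examined in Ca9-22 cells, an oral squamous cell carcinoma (OSCC) line, carrying a vector for the long noncoding RNA DLEU1 or a control vector. Probes were taken where they were not control spots and their gene name equalled IL1A, IL1B, IL1RN, IL36A, IL36B, IL36G, IL36RN, IL37, IL18 or IL33. This gave 12 probes for all 10 genes, out of 58201 probes with 43317 gene names. The rule for taking probes reads gene names and no measured values, though the family itself was chosen with earlier results of these data known.

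Both groups were Ca9-22 cells infected with a lentivirus and kept under blasticidin (6 mg/ml, 2 weeks). One carried the full-length DLEU1 cDNA, cloned from KON OSCC cells into pLenti6/V5-DEST, and the other carried the empty vector. Each group was 1 sample, labelled with Cy3 and then read on 1 Agilent 1-colour array (the control array and the DLEU1 array), so no test, p-value or SD across cultures could be given. Whether the infected cells were a clone or a mixed population was not stated, and a property of a culture cannot be told apart from an effect of the vector.

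IL-1 family cytokines are alarm signals of epithelia and of innate immune cells. IL-1α (IL1A) and IL-1β (IL1B) bind the receptor IL1R1, which recruits its partner IL1RAP and passes the signal through MYD88 and the IRAK kinases to NF-kB. The receptor antagonist (IL1RN) occupies IL1R1 without recruiting the partner. The IL-36 cytokines act in the same manner on IL1RL2 and have their own antagonist, IL36RN, whereas IL-18 and IL-33 use separate receptors and IL-37 is regarded as anti-inflammatory. Keratinocytes are known to store IL-1α and to make an intracellular form of the antagonist.

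Among the family, the antagonist gene IL1RN was higher with the DLEU1 vector, the agonist gene IL1A was lower by a little over 2-fold, and IL1B, IL18, IL36G and IL37 differed by less than 2-fold. IL36A, IL36B, IL36RN and IL33 were not well above background on either array. The 60-base probes of IL1RN, IL1A and IL1B are shown by their last 30 bases, with a polyadenylation signal (AATAAA) in capitals where a probe held one.

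IL1RN A_33_P3246833: ctctgttttacAATAAAatcttgaaaatgc

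IL1RN A_33_P3246829: agagcacagcagcccctgcacaaagccctt

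IL1A A_23_P72096: ccagagctactgactatggctaccaaaaag

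IL1B A_23_P79518: tctttaaatcaagtcctttaattaagactg

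The first IL1RN probe lies at chr2:113891531-113891590 and the other at chr2:113890639-113890698 (hg19, plus strand). The IL1A probe lies at chr2:113532362-113532421 and the IL1B probe at chr2:113587429-113587488, both on the minus strand. Both IL1RN probes are assigned to the same RefSeq transcripts in the array design, so the secreted and intracellular forms of the antagonist could not be separated.

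Values below are the processed signal of Agilent Feature Extraction with the error that this software attaches to a spot (±), and then differences in log2, DLEU1 vector minus control vector, after subtraction of the 75th percentile of each array. A probe is called detected where the software marked it as well above background. DLEU1 itself was read first. The probe A_23_P151337 gave 2178 on the control array and 14156 on the DLEU1 array, a difference of 2.74. The other DLEU1 probes are annotated to a different RefSeq transcript and were dim. They differed by 0.85 (55.9 and 98.4) and 0.54 (33.4 and 47.4).

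Detected probes numbered 27731 (47.6%) on the control array and 27969 (48.1%) on the DLEU1 array, and 20246 genes were detected on both. Their median difference was -0.07, with an SD of 0.90 over genes. Over 282 probes with repeated spots, the SD of the difference of a spot was 0.0800, and over the 4 of these with a signal under 100 it was 0.338. Neither this nor the software error holds variation between cultures. A region of the DLEU1 array was marked as damaged from its values, and damage itself was not tested. The region is the box around 5 layout blocks (16 rows by 8 columns) where at least 30% of lit probes were 2-fold lower. Inside this box 28.3% of the lit probes were 2-fold lower, against 12.6% outside, a contrast that follows from the choice. In this region lay 0 probes of the family. All 9 epithelial marker genes were detected on both arrays, among them TP63 and KRT5, which marks basal keratinocytes.

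Of the 10 family genes, 6 were detected on both arrays. A 2-fold increase was seen in 1 of the 6 (IL1RN) and a 2-fold decrease in 1 (IL1A). Over all genes detected on both arrays, 9.18% were higher by 2-fold or more and 9.78% lower. Higher genes made up 48.4% of these calls, and 19.0% with scaling to the spike-in probes. The family median was 0.02 and lay between -0.38 (spike-in scaling) and 0.13 (75th percentile of detected probes), with both signs among the settings tried, so no direction of the family as a whole was given.

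The antagonist IL1RN stood furthest from 0. Its brighter probe gave 2016 ± 202 on the control array and 17168 ± 1717 on the DLEU1 array. The signal was 8.74-fold higher, a log2 difference of 3.13 with a software error of 0.20. Of the 20246 genes, 0.494% had a larger difference. The other IL1RN probe was far dimmer, 63.1 ± 7.38 on the control array and 272 ± 27.5 on the other, a difference of 2.15. Both probes thus moved the same way and differed in size by 0.98. Under 14 other settings the brighter probe or the mean of both stayed at least 2-fold higher, from 2.64 (mean of the probes) to 3.37 (loess). In bulk RNA, more RNA per cell and a larger share of cells that make it cannot be told apart.

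Both agonists had differences below 0. IL1A, which is active already as a precursor, gave 1092 ± 109 on the control array and 516 ± 51.7 on the DLEU1 array, a difference of -1.04. This lay next to the 2-fold threshold. IL1A kept its sign under all 14 other settings but was less than 2-fold lower under 5 of them, reaching -0.93 with the 75th percentile over detected probes. IL1B, whose product needs cleavage by caspase-1, was bright on both arrays, 20028 ± 2003 and 13486 ± 1349. Its difference of -0.53 did not reach 2-fold, and 24.2% of genes lay lower.

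The gap between antagonist and agonists does not depend on a scaling that shifts all probes alike. With its brighter probe, the difference of IL1RN exceeded that of IL1A by 4.17, or 18.0-fold, with a software error of 0.29. Against IL1B the gap was 3.66, or 12.6-fold. The other IL1RN probe makes both gaps smaller by 0.98, which is more than this software error. The smallest gap to IL1A over the settings was 3.68, with the mean of the IL1RN probes, and the largest was 4.32, with loess. No setting used the dimmer IL1RN probe alone, which was 1.33 with normexp, so this range does not cover that probe. Levels of different probes were not compared, so these gaps say how the ratio moved and not how much antagonist there was per agonist.

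**Figure D1:**
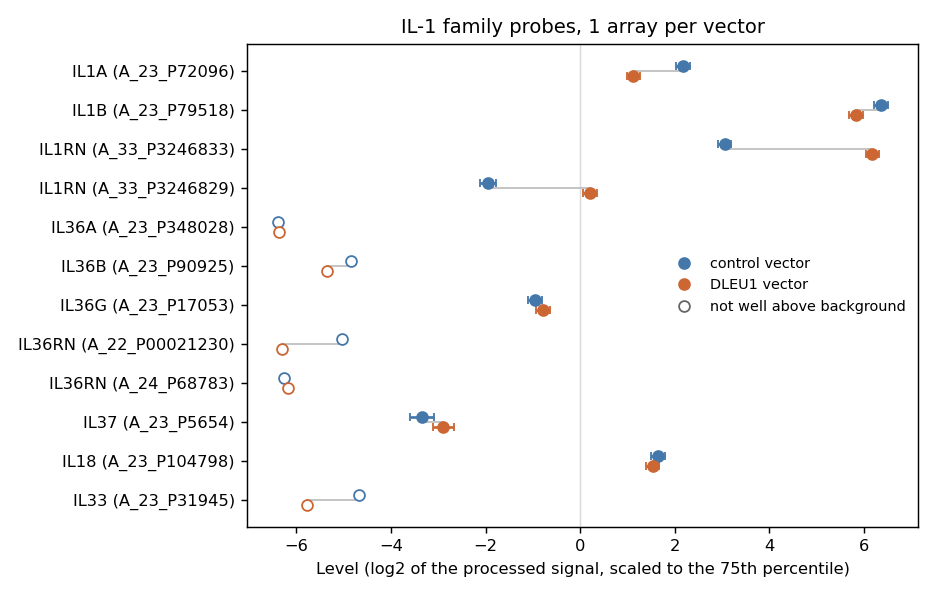
Level of each IL-1 family probe on the control array (blue) and the DLEU1 array (orange), as log2 of the processed signal scaled to the 75th percentile of the array. Bars are the software error of the spot, open circles are probes not well above background, and each point is 1 array. The IL1RN probes lie further right with the DLEU1 vector, from 3.06 to 6.18 and from -1.94 to 0.21, and IL1A lies further left, from 2.17 to 1.13.

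Among the IL-36 genes, IL36G was the single one detected. Its product IL-36γ is a keratinocyte alarm cytokine. The probe A_23_P17053 gave 126 ± 13.1 on the control array and 137 ± 14.2 on the DLEU1 array, a difference of 0.16 within its software error of 0.21, and the sign turned to -0.23 with spike-in scaling. IL36A gave 2.88 and 2.87, and IL36B 8.48 and 5.81. The IL36RN probes gave 7.35 and 2.97, and 3.14 and 3.24. None of these probes was well above background, so the IL-36 antagonist could not be set beside the IL-1 antagonist.

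IL18, an inducer of interferon-γ that epithelial cells hold as a precursor, gave 761 ± 76.2 and 683 ± 68.4. Its difference of -0.12 lay near the median of all genes. IL37 was dim, 23.8 ± 4.27 on the control array and 31.8 ± 4.82 on the DLEU1 array, with a difference of 0.45 and a software error of 0.34. IL33, a nuclear alarm cytokine, gave 9.50 and 4.30 and was not well above background. IL1F10, which encodes IL-38 and was not among the 10 genes, differed by -0.64 at signals of 30.8 and 19.3.

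**Figure D2:**
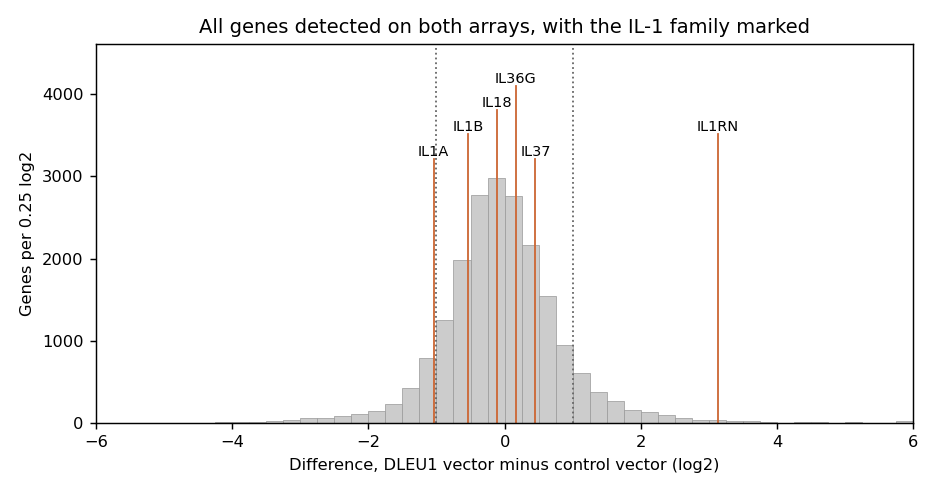
Number of genes in each step of 0.25 of the log2 difference, for the 20246 genes detected on both arrays (10 genes beyond 6 are drawn in the outermost steps). Orange lines mark the 6 family genes and dotted lines the 2-fold limits. IL1RN (3.13) lies in the upper tail, IL1A (-1.04) next to the lower limit, and IL1B, IL18, IL36G and IL37 lie between the limits.

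The 65 other genes of the pathway were then read by their role. Of these, 46 were detected on both arrays, with 5 higher by 2-fold or more, 7 lower and 34 in between, and their median was -0.10. The shares of 10.9% higher and 15.2% lower stand beside 9.18% and 9.78% over all genes. Another 4 were detected with the control vector only, and 15 on neither array. Over all 43317 gene names, 22543 were detected on at least 1 array, 20246 of them on both, and 20774 on neither.

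Of 11 receptor and binding protein genes, 4 were detected on both arrays. IL1R1, the receptor that IL-1α, IL-1β and the antagonist share, gave 3.50 and 3.57 and was not well above background, and neither were the decoy receptor gene IL1R2, the IL-36 receptor gene IL1RL2 (7.93 and 5.57) and the IL-33 receptor gene IL1RL1. The shared partner IL1RAP differed between its probes. A_23_P170857 gave 767 ± 76.7 and 1698 ± 170, a difference of 1.19, whereas A_23_P336554 gave 683 ± 68.4 and 733 ± 73.4, a difference of 0.14. These probes belong to different RefSeq transcripts (NM_002182 and NM_134470), and the mean of the probes was 0.66. IL18R1, the IL-18 receptor chain, was detected with the control vector only. Its probe A_33_P3211666 gave 46.1 and 6.20 and was at least 3.14-fold lower with the DLEU1 vector, a bound that rests on this probe, since A_24_P208567 gave 25.6 and 11.1 and a further probe was not detected. Its partner IL18RAP differed by 0.65, and the IL-18 binding protein gene IL18BP by -0.66. SIGIRR, an inhibitory receptor, differed by 0.04 with a probe in the damaged region and by -0.10 with a probe outside it.

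Among 13 genes of signalling below the receptors, 12 were detected on both arrays. PELI2, a ubiquitin ligase that binds IRAK proteins, was higher. It gave 208 ± 21.1 and 826 ± 82.7, a difference of 2.03. The kinase gene IRAK1 was lower on both of its probes, by -1.50 (6768 ± 677 and 2326 ± 233) and by -1.23. The adaptor gene MYD88 differed by 0.67 and the other 9 lay between -0.54 (IRAK2) and 0.67 (PELI1). The inhibitory kinase gene IRAK3 was not well above background.

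Of 20 genes for processing and release, 15 were detected on both arrays. Of these, 1 was at least 2-fold different, beside 19.0% of all genes detected on both arrays. PYCARD, the inflammasome adaptor ASC, gave 1693 ± 169 and 3581 ± 358. Its difference was 1.12, and 0.72 with spike-in scaling. CASP1, the protease that matures IL-1β and IL-18, gave 4557 ± 456 and 4329 ± 433. That difference was -0.04, with both signs among the settings tried. The sensor gene NLRP1 differed by 0.26 on its brighter probe and by 1.14 on the other, at signals of 25.5 and 54.9. The pore-forming gasdermin gene GSDMD differed by -0.05, and CAPN2, a subunit of a calpain, the protease family that cleaves IL-1α, by -0.56.

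Genes known to be induced by IL-1 did not move as one. Of 21 response genes, 15 were detected on both arrays, of which 6 were lower and 2 higher, with a median of -0.77. The share of 40.0% lower stands beside 9.78% over all genes. The cytokine gene CSF2 gave 483 ± 48.4 and 81.2 ± 8.73, a difference of -2.54. The chemokine gene CXCL2 differed by -2.18, the NF-kB inhibitor gene TNFAIP3 by -2.12, IL6 by -1.71, the apoptosis inhibitor gene BIRC3 by -1.61 and the mitochondrial dismutase gene SOD2 by -1.49. IL6 and BIRC3 were dim, and with normexp background correction they were less than 2-fold lower, at -0.59 and -0.77.

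The chemokine gene CXCL8 was detected with the control vector only and was at least 7.85-fold lower with the DLEU1 vector, at signals of 115 ± 12.0 and 7.57. Over all genes detected on at least 1 array, 1.24% were bounded at 2-fold or more in this way, and 1.95% were so with the DLEU1 vector only, which held 0 genes of the family or the pathway. CXCL1 and CCL20 were also detected with the control vector only, each with a bound of at least 1.12-fold. In the other direction, LCN2, an iron-scavenging antimicrobial protein, gave 20.8 ± 3.59 and 217 ± 21.9, a difference of 3.42. The antimicrobial peptide gene DEFB4A differed by 3.04. With normexp these were 1.84 and 1.64. NFKBIA, a direct target and inhibitor of NF-kB, differed by -0.07 at signals of 9648 and 8981, and TNF was not well above background on either array.

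**Figure D3:**
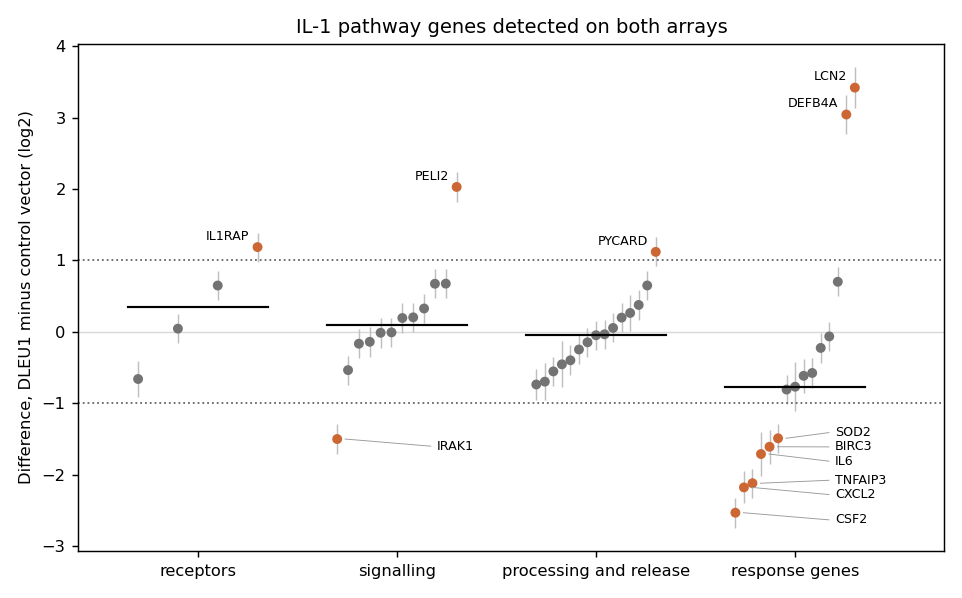
Log2 difference, DLEU1 vector minus control vector, of each of the 46 pathway genes detected on both arrays, grouped by role. Grey bars are software errors, black lines are medians, dotted lines are the 2-fold limits, and orange points lie beyond them. Response genes have the lowest median (-0.77) and reach from CSF2 (-2.54) to LCN2 (3.42), and the receptor, signalling and processing groups have medians of 0.34, 0.09 and -0.05.

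Most of the family lies in 1 cluster on chromosome 2, in band 2q14. From the IL1A probe to the IL1RN probes the cluster spans 359 kb and holds 14 probes, 10 of them of family genes. The difference changed along it without a common direction. On the IL1A side, that gene differed by -1.04 and IL1B, 55.1 kb away, by -0.53. IL37 (143.9 kb) and IL36G (210.6 kb) were within 2-fold, and the IL1RN probes at the other end differed by 2.15 and 3.13. Of 8 flanking genes with a probe, 2 were at least 2-fold lower, beside 9.78% over all genes detected on both arrays. Whether so few genes set this neighbourhood apart from other genes was not tested. CKAP2L, a spindle protein gene 36.6 kb before IL1A, differed by -2.93, and the phosphate transporter gene SLC20A1 by -1.82. Beyond IL1RN, PSD4 differed by 0.72 and -0.15 on its probes and PAX8 by -0.17.

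**Figure D4:**
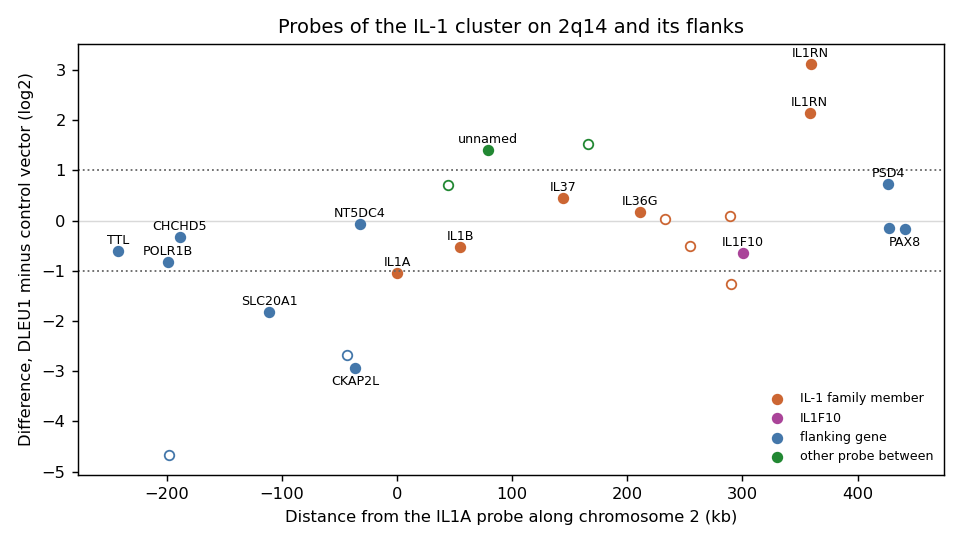
Log2 difference of each probe in and around the IL-1 cluster against its distance from the IL1A probe in kb. Filled points were detected on both arrays and open points were not, and dotted lines are the 2-fold limits. The IL1RN probes stand highest (3.13 and 2.15), CKAP2L (-2.93) and SLC20A1 (-1.82) are the lowest filled points, and the lowest open point is a second POLR1B probe (-4.67) in the damaged region.

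The 250 bases before the start sites of the family genes were read from RefSeq on GRCh38.p14, with 14 windows for 8 of the genes (IL18 and IL36B had none). The AP-1 motif TGANTCA was found in 3 windows, of IL1A and IL1RN, and in 6.57% of 35116 windows over all genes. The IL1A windows overlap and share a match, so that site is counted in more than 1 window. An NF-kB motif, GGG and CC with any 5 bases between, was in 5 windows of the family and 54.4% of all, and TATAAA was in 3 and in 3763 of all. Both strands were searched. The windows of the genes that differed most are printed with AP-1 matches in capitals, first an IL1RN window at chr2:113117721-113117970 (plus strand, match 223 bases before the start), then that of another IL1RN start at chr2:113127239-113127488 (plus strand, no match), then an IL1A window at chr2:112784494-112784743 (minus strand, match 12 bases before the start).

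IL1RN, first start: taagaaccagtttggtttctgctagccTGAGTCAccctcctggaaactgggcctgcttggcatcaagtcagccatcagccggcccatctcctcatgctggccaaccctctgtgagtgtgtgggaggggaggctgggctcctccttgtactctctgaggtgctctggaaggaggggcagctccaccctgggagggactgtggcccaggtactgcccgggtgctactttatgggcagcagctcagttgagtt

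IL1RN, another start: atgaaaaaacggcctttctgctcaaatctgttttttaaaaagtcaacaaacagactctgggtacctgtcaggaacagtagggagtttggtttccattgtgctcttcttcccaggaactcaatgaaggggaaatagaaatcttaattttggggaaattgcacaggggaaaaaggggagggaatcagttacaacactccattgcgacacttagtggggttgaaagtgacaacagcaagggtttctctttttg

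IL1A: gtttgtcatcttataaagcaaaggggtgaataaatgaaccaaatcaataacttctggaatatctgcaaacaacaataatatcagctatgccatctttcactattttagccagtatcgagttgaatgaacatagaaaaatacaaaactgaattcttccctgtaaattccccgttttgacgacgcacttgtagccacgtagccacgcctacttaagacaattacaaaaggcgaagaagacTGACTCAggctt

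AP-1 matches were thus present before a gene that was higher and before one that was lower, and which IL1RN start was in use could not be read from these probes.

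Markers of other cells were read beside IL1RN, since leukocytes also express the antagonist. Of 6 leukocyte marker genes with a probe, 5 were detected on both arrays, and the summed signal of the 6 was 1380 on the control array and 3892 on the DLEU1 array. CSF1R (1.86) was higher and the monocyte marker CD14 (-1.60) was lower. PTPRC, the pan-leukocyte marker CD45, gave 72.7 ± 7.80 and 96.9 ± 10.1, and CD3E was not well above background. Of 6 fibroblast marker genes, COL1A1 was higher (3.99) and PDGFRB differed by -0.33 at signals of 21.3 and 16.5. LUM was detected with the DLEU1 vector only, and COL1A2, COL3A1 and DCN were not well above background. Of 4 endothelial marker genes, VWF was higher by 3.70 on its brightest probe but differed by -0.07 on another detected one (33.7 and 31.2), CDH5 differed by -0.59, and PECAM1 and TEK were not well above background. Of the epithelial markers, KRT14 (2.85), KRT5 (2.10), DSP (1.37) and CDH1 (1.04, with a probe partly in the damaged region) were higher. TP63 differed by 0.96, KRT8 by 0.18, SFN by 0.0015, EPCAM by -0.78 and KRT18 by -0.93, with the other KRT18 probe at -1.04. The part of any of these in the IL1RN difference was not tested.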

How the data were processed

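Total RNA of Ca9-22 cells with a control vector or a DLEU1 vector was measured on 1 Agilent SurePrint G3 Human GE array each. The deposited intensity values were produced by the authors with Feature Extraction (version 10.7.3.1). Per the file headers this software took off local background and a trend over the array, and put a surrogate value in place of dim spots. The methods name GeneSpring for the authors' own analysis. The deposited series values held the same intensity, rounded, within 0.497%. Probe positions were on hg19.

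Control spots and outlier spots (84 and 103) were left out, and 0 spots were saturated. The processed intensity was put on the log2 scale, repeated spots were averaged by probe, and each array was scaled by subtracting its 75th percentile (7.92 and 7.88). Of several probes detected on both arrays, the brightest gave the value of the gene. A probe detected on 1 array only was compared with the higher of the lowest detected level (-4.09 and -4.04) and its own level on the dim array, and its fold was written as at least that value. Calls were made at 2-fold.

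The family genes, the pathway lists and the alternatives were chosen with earlier results of these data known. All 10 family genes were named, as were pathway genes that passed 2-fold or were detected on 1 array, and a fixed set closest to the family by role. Others were named after their values were seen. A further gene of the leukocyte marker list is not reported here and was left out of its counts and sums. Analyses used Python 3.11.15, pandas 2.3.3 and numpy 2.4.6, with limma 3.58.1 in R 4.3.3 for normexp (offset 50), and were tested on simulated data. The number of arrays limits the precision.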

Additional observations from a re-analysis of the deposited data

Results flagged for a closer look

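A single further probe between IL1B and IL37 was well above background on both arrays and belonged to no gene of the family. A_32_P51787, annotated in the array design only to the transcript ENST00000312918, gave 96.1 on the control array and 247 on the DLEU1 array, a log2 difference of 1.40. It lies at chr2:113611162-113611221 (hg19), 78.8 kb from the IL1A probe. It stood out because it was lit in data that the comparison of the family did not use, and there was no replicate of it.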

How the results depend on the processing

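No paired analysis was possible because each group had 1 array, and leaving out a replicate was not possible for the same reason. IL1RN was at least 2-fold higher under all 14 settings that gave it a value, and IL1A, IL1B and IL18 kept their sign under all 14. The family median (0.02) was -0.091 with median scaling, 0.13 with percentile scaling over detected probes only (detected scaling), -0.38 with spike-in scaling, -0.31 without a filter on dim probes, -0.12 with a signal of at least 100 and -0.31 with probes positive and significant against background. The count of lower family genes (1) was 0 with detected scaling, quantile normalization, loess, normexp, subtraction of the median of the 100 nearest spots, and a 3-fold threshold, 3 without a filter and 2 with positive and significant probes. The pathway median (-0.10) was -0.22 with median scaling, 0.0079 with detected scaling, -0.011 with quantile normalization, 0.014 with loess, -0.50 with spike-in scaling, -0.015 with a signal of at least 100 and -0.20 with positive and significant probes. The count of higher pathway genes (5) was 3 with spike-in scaling, 3 with a signal of at least 100, 10 at 1.5-fold and 3 at 3-fold. The count of lower pathway genes (7) was 13 with spike-in scaling, 12 without a filter, 3 with a signal of at least 100, 11 with positive and significant probes and 13 at 1.5-fold. The median of all genes moved from -0.07 to -0.47 with spike-in scaling, to -0.18 with median scaling and to 0.041 with detected scaling, so part of each such shift is common to all genes. Of 838 values of 61 named genes under the alternatives, 35 values of 16 genes changed sign, and none of these was at least 2-fold in the main setting. Dim probes limit what can be read of IL37 and of the IL-36 genes. The second IL1RN probe was 1.33 with normexp.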
